A study of Mus musculus with 8 samples.

Results

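The 10 genes described here encode contractile proteins of smooth muscle and stress fibres (Acta2, Tagln, Myl9, Cnn1, Tpm1 and Tpm2), the actin-binding thymosins (Tmsb4x and Tmsb10), and a pair of proteins often used to mark pericytes (Mcam and Rgs5). They are 10 of 48490 genes in the deposited expression table and were chosen by symbol, with their levels in these libraries already known: Tmsb4x was picked because it was highest in the libraries labelled as β-catenin loss of function and lowest in those labelled as gain of function. The levels of all 10 genes are therefore given as descriptions, with no p-value. The study asked what β-catenin, the transcriptional effector of canonical Wnt signalling, does in hypertrophic chondrocytes and the cells that descend from them. Single tdTomato-positive cells were picked by hand from the proximal tibia of mice at postnatal day 5, 70 cells were pooled per library, and RNA was amplified and sequenced by Smart-seq2, a full-length method that does not mark strand.

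Every library came from mice with Col10a1Cre and the Rosa26-Tdtomato reporter, so that red cells are those in which the Col10a1 promoter has driven Cre at some time, and their descendants. WT libraries (n = 2) had no other allele named in their labels. LoF libraries (loss of function, n = 4) also carried Ctnnb1Δ/Δ, in which both copies of the β-catenin gene are deleted by the same Cre. GoF libraries (gain of function, n = 2) carried Ctnnb1-exon3 Δ/+, in which exon 3, the part that marks β-catenin for degradation, is removed from 1 copy. The labels do not say whether the libraries of a group came from separate animals, so the spread between them may be technical. In a pool of cells, fewer cells that express a gene and less RNA of it per cell cannot be told apart.

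Smooth muscle cells, pericytes and other contractile cells build filaments from α-smooth muscle actin (Acta2), which tropomyosins wrap and myosin II pulls on. The pool of free actin monomers feeds these filaments, and β-thymosins hold monomers in reserve. Monomer levels also control MRTF, a cofactor of serum response factor (SRF), which switches on many contractile genes through a DNA element called the CArG box. Pericytes are mural cells wrapped around capillaries, and MCAM-positive stromal cells of marrow include skeletal progenitors.

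The stretches of DNA just before the start sites of Myl9, Acta2 and Tmsb4x are shown because these genes had large differences between the groups and because the windows hold elements of the kind bound by SRF or by the TCF/LEF partners of β-catenin. RefSeq promoter windows (GRCm38.p6, the assembly called mm10) were found for 9 of the 10 genes and searched on both strands over 250 bases before the start site. Capitals mark CArG boxes or CArG boxes with 1 core base other than A or T in Myl9 and Acta2, and the TCF/LEF core CTTTG, here on the other strand as CAAAG, in Tmsb4x. All are printed 5′ to 3′ on the strand of the gene.
Myl9, chr2:156775214-156775419, plus strand: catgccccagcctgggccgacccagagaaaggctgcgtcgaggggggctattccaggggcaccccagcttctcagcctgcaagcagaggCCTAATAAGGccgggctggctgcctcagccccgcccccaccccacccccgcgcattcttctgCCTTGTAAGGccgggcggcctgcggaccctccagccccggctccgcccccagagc
Acta2, chr19:34255438-34255467, minus strand: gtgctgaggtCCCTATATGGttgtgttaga
Acta2, chr19:34255388-34255417, minus strand: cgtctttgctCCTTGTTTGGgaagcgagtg
Tmsb4x, chrX:167209316-167209468, minus strand: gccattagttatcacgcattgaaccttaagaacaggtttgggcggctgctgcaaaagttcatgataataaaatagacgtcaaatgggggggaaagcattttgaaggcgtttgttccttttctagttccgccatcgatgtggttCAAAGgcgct

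The Myl9 window held an exact CArG box 161 to 152 bases before the RefSeq start and a near match 99 to 90 bases before it. The Acta2 window held near matches 84 to 75 and 34 to 25 bases before the start, and no exact one. Exact boxes were found in 1 of the 9 genes and in 1.47% of 32851 promoter windows. A gene is counted here with a match in any of its windows (Tmsb10 has 3), while the percentages count windows. Boxes with 1 core base other than A or T were found in 2 of the 9 genes (Acta2 and Myl9), against 7.24% of all windows. The TCF/LEF core was in 4 of the 9 genes (Acta2, Tpm2, Tmsb4x and Rgs5), against 48.6% of all windows. In Tmsb4x it lay 107 to 103 bases before the RefSeq start. In Acta2 it lay 41 to 37 bases before the RefSeq start, as CTTTG within the printed stretch nearer that start, where it is left in lower case. The printed Myl9 and Tmsb4x stretches stop short of the RefSeq start, where the gene begins in GENCODE M21, another annotation (156775420 and 167209315). For Tmsb4x the marked core is therefore close to the GENCODE start. Acta2 starts at 34255373 in RefSeq and at 34255590 in GENCODE M21, so its near matches lie inside the GENCODE gene. A match describes the letters only. No binding was measured here.

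Across the libraries 12587 to 13944 genes were above 0, and the sum of FPKM (fragments per length of transcript and per library size) ranged from 293194 to 382101. The table holds no counts, so the number of reads behind each value is unknown, and no floor can be given for a value listed at 0. Relative depth was estimated from the most frequent ratio of low values to those of WT 2. It ranged from 0.904 in GoF 1 to 1.16 in LoF 2, with WT 2 set to 1. Ctnnb1, read over the whole gene and so no direct view of the deleted exons, was 67.3 to 81.1 FPKM in LoF, 72.0 and 86.7 in GoF, and 137 and 146 in WT. The β-catenin target Axin2 was listed at 0 in all 4 LoF libraries, at 0 and 0.32 in WT, and at 5.26 and 2.80 in GoF. Of the defining hypertrophic markers, Col10a1 was 9.61 to 114 FPKM in LoF, 6.24 and 20.5 in WT and 190 and 177 in GoF, and Ihh was listed at 0 in every LoF and WT library and was 1.46 and 3.91 in GoF. Mmp13, a collagenase of late hypertrophic cells, went the other way, at 3113 to 4784 FPKM in LoF, 2106 and 1514 in WT and 10.9 and 86.7 in GoF. The sum of all 8 hypertrophic markers was 3309 to 4970, 1840 and 2401, and 751 and 835 in these groups, and without Mmp13 it was 109 to 196, 295 and 325, and 739.8 and 749. The summed level of 8 osteoblast markers was 11282 to 14896 FPKM in LoF, 24241 and 25449 in WT and 32548 to 33589 in GoF. Without Spp1, which makes up most of the LoF sum, it was 2412 to 4753, 20006 and 22000, and 30608 and 32389. Xist and Y-linked transcripts marked LoF 1, LoF 4 and both WT libraries as female, and LoF 2, LoF 3 and both GoF libraries as male, so sex and group cannot be told apart between GoF and WT.

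Thymosin β4 (Tmsb4x, ENSMUSG00000049775.16), the main actin-monomer-sequestering peptide of many cells, is encoded on the X chromosome at 167207093 to 167209315 (mm10, minus strand), with 3 exons in its longest coding transcript. It was among the most abundant transcripts of the LoF libraries, at 1707, 2192, 1836 and 1910 FPKM in replicates 1 to 4. WT libraries had 528 and 538 FPKM, and GoF libraries 209 and 242. No library of one group overlapped another, and the 4 LoF values lay close together. The means were 1911 ± 205 (SD, n = 4) in LoF, 533 ± 7.15 (n = 2) in WT and 225 ± 23.3 (n = 2) in GoF, so that LoF was 3.58 times WT and 8.48 times GoF, and WT was 2.37 times GoF. In rank by FPKM, Tmsb4x stood at places 10 to 12 in the LoF libraries, 56 and 61 in WT, and 250 and 253 in GoF. The male LoF libraries had 2192 and 1836 FPKM and the female ones 1707 and 1910. LoF 2 and LoF 3 lay above both male GoF libraries, and LoF 1 and LoF 4 above both female WT libraries. This follows from the lack of overlap between whole groups and says nothing about sex. The effect of sex on Tmsb4x was not tested.

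Its relative thymosin β10 (Tmsb10, ENSMUSG00000079523.8, chromosome 6, 72957347 to 72958748, minus strand) sequesters monomers too. It differed less between the groups, at 308, 357, 790 and 745 FPKM in LoF, 223 and 361 in WT and 214 and 269.7 in GoF. LoF lay above GoF without overlap and overlapped WT, and LoF 3 and LoF 4 were higher than LoF 1 and LoF 2. The group means were 549.8 ± 253 (n = 4), 292 ± 97.7 (n = 2) and 242 ± 39.7 (n = 2). Reads of near-identical copies cannot be assigned with certainty: Gm3788, 99.3% identical over 136 bases, was listed at 360 FPKM in LoF 1, at 239 in LoF 3 and at 0 elsewhere. With Gm3788 and a further copy, Gm9844, added, the sum was 686, 359, 1039 and 747 in LoF, 231 and 366 in WT and 217 and 279.9 in GoF. LoF 1 then lay next to LoF 4, and LoF and WT overlapped by 1 library of each.

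**Figure D1:**
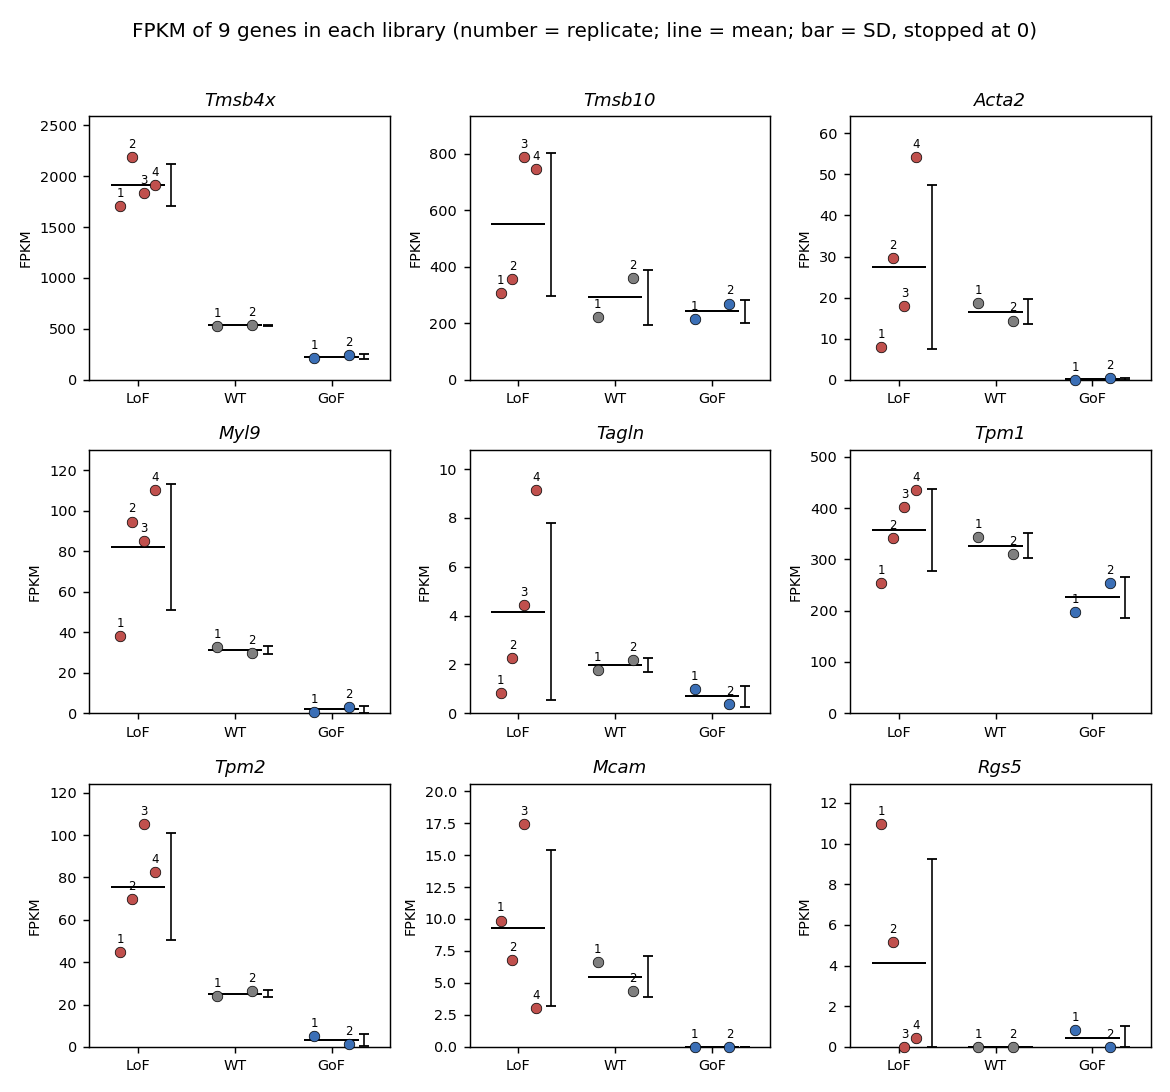
FPKM of 9 of the 10 genes (y axis, from 0) in each library of the LoF, WT and GoF groups (x axis); points are libraries numbered by replicate, lines are means and bars SD, stopped at 0. Tmsb4x, Tpm2 and Myl9 have LoF, WT and GoF libraries at separate levels, while Rgs5 is above 5 FPKM only in LoF 1 and LoF 2.

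The ratio of the thymosins within each library also differed. Tmsb4x was 5.55, 6.14, 2.32 and 2.56 times Tmsb10 in LoF, 2.37 and 1.49 times in WT, and 0.977 and 0.896 times in GoF. With the near-identical copies added to Tmsb10, an alternative chosen after the values were seen, the LoF ratios were 2.49, 6.10, 1.77 and 2.56, so that LoF 1 lay beside LoF 4, and WT and GoF ratios were 2.28 and 1.47, and 0.961 and 0.863. In GoF the members of the pair were thus at nearly equal levels, and every LoF and WT library had more Tmsb4x. Against β-actin (Actb), Tmsb4x was 2.63, 2.88, 0.672 and 0.816 times as abundant in LoF, 0.556 and 0.561 times in WT, and 0.265 and 0.240 times in GoF. The LoF libraries split in this ratio, and Actb itself was 649 and 761 FPKM in LoF 1 and LoF 2 but 2733 and 2339 in LoF 3 and LoF 4. Actg1, Pfn1 and Cfl1, which encode γ-actin, profilin and cofilin, and Tmsb10 were higher in LoF 3 and LoF 4 as well, and Tmsb4x was not.

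**Figure D2:**
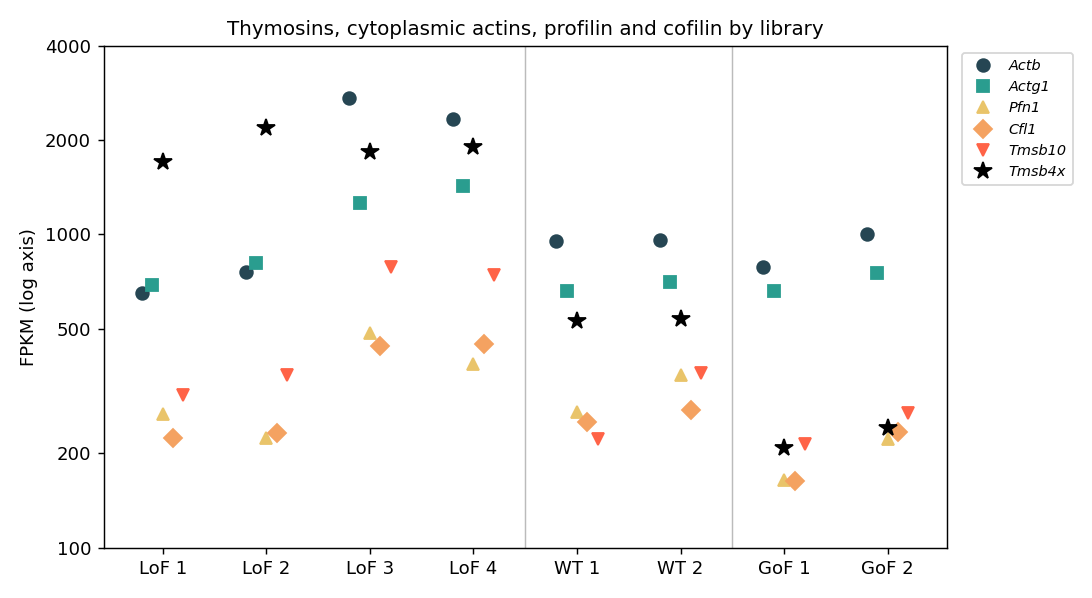
FPKM on a log axis of Tmsb4x (stars), Tmsb10, Actb, Actg1, Pfn1 and Cfl1 in each of the 8 libraries (x axis). In LoF 3 and LoF 4 the other 5 genes stand above LoF 1 and LoF 2, while Tmsb4x lies between 1707 and 2192 in all 4.

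Leukocytes are rich in both thymosins, so their markers are given beside these values. The sum of 12 myeloid and leukocyte markers was 40.2 to 112 FPKM in LoF, 47.6 and 49.8 in WT and 24.4 and 30.7 in GoF, with Itgam at 0 in every library. Its highest values, 112 and 89.1, were in LoF 3 and LoF 4, where Tmsb10 was also highest. Of the defining markers, the pan-leukocyte gene Ptprc was listed at 0 in both of these and was 4.66 FPKM in LoF 2, where Tmsb4x was highest, and Csf1r was at most 0.870 in any library. Fcer1g, an Fc receptor subunit of myeloid cells, was 9.35, 30.2, 52.9 and 29.0 FPKM in LoF, 1.48 and 23.0 in WT and 0 and 2.63 in GoF, and fell in GoF against LoF (log2 difference -3.82, SE 0.93, limma adjusted p = 0.0257). It was the 1 gene called of 7 tested in this list. LoF 1 had a lower marker sum (40.2) than either WT library and 1707 FPKM of Tmsb4x against 528 and 538. The part of such cells in the thymosin levels was not tested. The sum of 8 osteoclast markers was 59.2 to 74.3 in LoF, 65.4 and 74.8 in WT and 102 and 105 in GoF. Acp5 rose in GoF against LoF (17.6 and 22.3 FPKM against 1.08 to 6.99, limma adjusted p = 0.0319), while the defining Ocstamp, Dcstamp and Calcr were listed at 0 in all 8 libraries.

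α-Smooth muscle actin (Acta2, ENSMUSG00000035783.8, chromosome 19, 34241090 to 34255336, minus strand) forms the contractile filaments of smooth muscle and of activated stromal cells. It was 7.85, 29.6, 17.9 and 54.3 FPKM in LoF and 18.8 and 14.4 in WT. In GoF it was listed at 0 in replicate 1 and at 0.336 in replicate 2. Both GoF libraries lay below all others, and the LoF values surrounded those of WT. The means were 27.4 ± 20.0 (n = 4) in LoF and 16.6 ± 3.08 (n = 2) in WT. On the log2(FPKM + 1) scale GoF was lower than LoF by a difference of -4.32 (SE 0.63) and than WT by -3.92 (SE 0.73). LoF and WT differed by 0.40 (SE 0.63), and that sign turned without LoF 4.

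The regulatory light chain Myl9 (ENSMUSG00000067818.6, chromosome 2, 156775420 to 156781658, plus strand), which switches myosin II on when phosphorylated, had the largest difference between GoF and LoF of the 9 genes tested, while Acta2 had the largest between GoF and WT. It was 38.3, 94.7, 85.1 and 110.2 FPKM in LoF, 32.7 and 29.9 in WT, and 0.778 and 3.00 in GoF. The 3 groups did not overlap, although LoF 1 lay close to WT. Means were 82.1 ± 30.9 (n = 4), 31.3 ± 1.95 (n = 2) and 1.89 ± 1.57 (n = 2). The log2 differences were -4.86 (SE 0.47) for GoF against LoF, -3.60 (SE 0.54) for GoF against WT and 1.26 (SE 0.47) for LoF against WT. Among male libraries alone, Myl9 was 94.7 and 85.1 FPKM in LoF against 0.778 and 3.00 in GoF. This too follows from the lack of overlap, and the effect of sex on Myl9 was not tested. Relative to Myl6, the essential light chain of nonmuscle myosin, Myl9 was 0.0678 to 0.172 in LoF, 0.0862 and 0.0882 in WT and 0.0037 and 0.0111 in GoF. This ratio overlapped between LoF and WT and lay lower in GoF.

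The tropomyosins Tpm1 and Tpm2 are coiled-coil proteins that lie along actin filaments, and they differed from each other in pattern. Tpm1 (ENSMUSG00000032366.15, chromosome 9, 67022590 to 67049406, minus strand) was high throughout, at 253, 341, 403 and 435 FPKM in LoF, 344 and 310 in WT and 198 and 254 in GoF. GoF lay below WT and overlapped LoF, with GoF 2 just above LoF 1. The LoF mean was 1.58 times the GoF mean. Tpm2 (ENSMUSG00000028464.16, chromosome 4, 43514711 to 43523765, minus strand) was 44.8, 69.6, 105 and 82.5 FPKM in LoF, 24.0 and 26.3 in WT, and 5.21 and 1.15 in GoF, with no overlap between groups. Its LoF mean was 75.6 ± 25.3 (n = 4), which was 3.00 times WT (25.2 ± 1.60, n = 2) and 23.8 times GoF (3.18 ± 2.87, n = 2).

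The share of the second tropomyosin therefore shifted within libraries. Tpm2 was 0.177 to 0.262 times Tpm1 in LoF, 0.0698 and 0.0848 times in WT, and 0.0263 and 0.0045 times in GoF. All 3 groups were separate in this ratio. These values sum all isoforms of each gene, and Tpm1 alone has 16 coding transcripts in GENCODE M21.

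**Figure D3:**
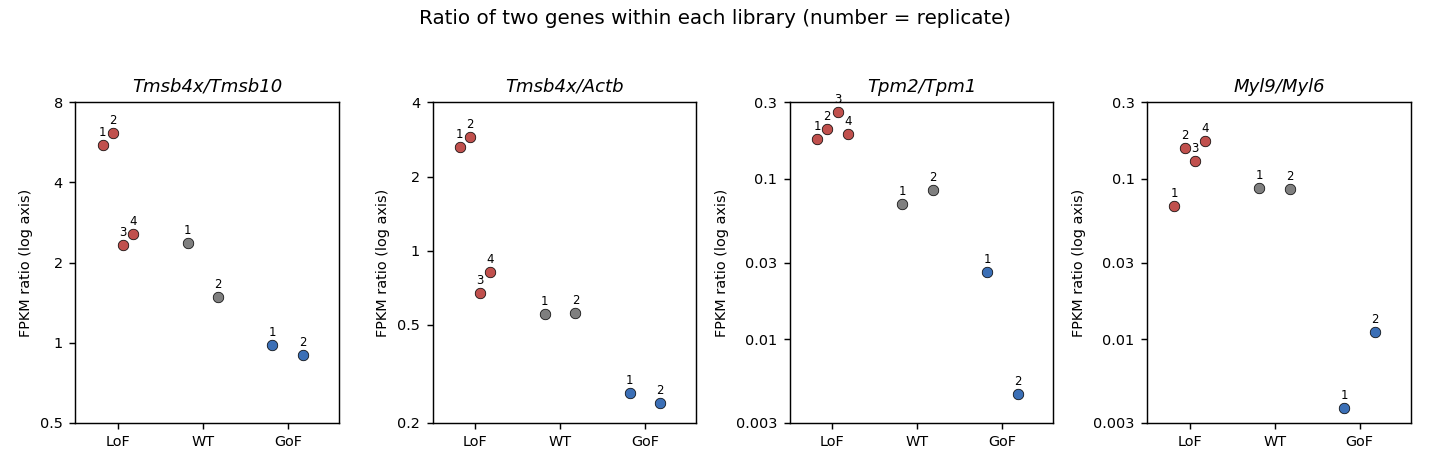
Ratio of FPKM within each library (y axis, log scale) for Tmsb4x to Tmsb10, Tmsb4x to Actb, Tpm2 to Tpm1 and Myl9 to Myl6; points are libraries numbered by replicate. GoF libraries are lowest in all 4 panels, and LoF 1 and LoF 2 lie above LoF 3 and LoF 4 in both thymosin panels, where the Tmsb10 panel leaves out the near-identical copies that bring LoF 1 down to 2.49.

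The smooth muscle genes Tagln and Cnn1 were low or absent. Transgelin (Tagln, ENSMUSG00000032085.4, chromosome 9, 45929628 to 45936058, minus strand), an actin bundler of smooth muscle, was 0.819, 2.27, 4.44 and 9.14 FPKM in LoF, 1.76 and 2.18 in WT and 0.993 and 0.387 in GoF. GoF lay below WT and overlapped LoF through LoF 1. Tagln shares bases with Pcsk7 on the other strand, which was 1.86 to 5.73 FPKM, and without strand the reads of such a pair cannot be told apart. Calponin 1 (Cnn1, ENSMUSG00000001349.4, chromosome 9), a late smooth muscle protein, was listed at 0 in all 8 libraries and was not tested. Smooth muscle myosin heavy chain (Myh11) was also listed at 0 in all 8. Smoothelin (Smtn), from the smooth muscle list, was 3.05 to 12.6 FPKM in LoF, 13.3 and 14.8 in WT and 4.88 and 2.79 in GoF. Limma called Smtn in no comparison. The values of Acta2, Myl9 and Tpm2 thus come from libraries in which Cnn1 and Myh11 had no measured level, while Smtn had one.

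MCAM (Mcam, CD146, ENSMUSG00000032135.14, chromosome 9, 44134469 to 44142727, plus strand) is an adhesion molecule of pericytes, endothelium and marrow stromal progenitors. It was 9.88, 6.82, 17.5 and 3.07 FPKM in LoF and 6.60 and 4.34 in WT. It was listed at 0 in both GoF libraries, so no fold is given. GoF lay below every other library, and LoF and WT overlapped. The highest value was in LoF 3, where the sum of 10 endothelial markers was 98.7 FPKM against 1.498 to 14.3 in the other LoF libraries, 5.09 and 6.23 in WT and 0.617 and 1.76 in GoF. The endothelial cadherin gene Cdh5 was 4.32 in LoF 3 and listed at 0 in the other LoF libraries and in WT, and Pecam1 was 9.40 in LoF 3. Over the LoF and WT libraries, Mcam stood in the same order as the endothelial sum. The part of endothelial cells in the Mcam level was not tested.

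RGS5 (Rgs5, ENSMUSG00000026678.10, chromosome 1, 169655501 to 169695813, plus strand), a brake on G-protein signalling and a classic pericyte marker, was carried by few libraries. It was 10.98, 5.17, 0 and 0.432 FPKM in LoF, 0.833 and 0 in GoF and 0 in both WT libraries. Only LoF 1 and LoF 2 were above 1 FPKM, and the gene entered the tested set through those libraries alone. Its log2 difference of GoF against LoF, -1.24, had an SE of 0.91.

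**Figure D4:**
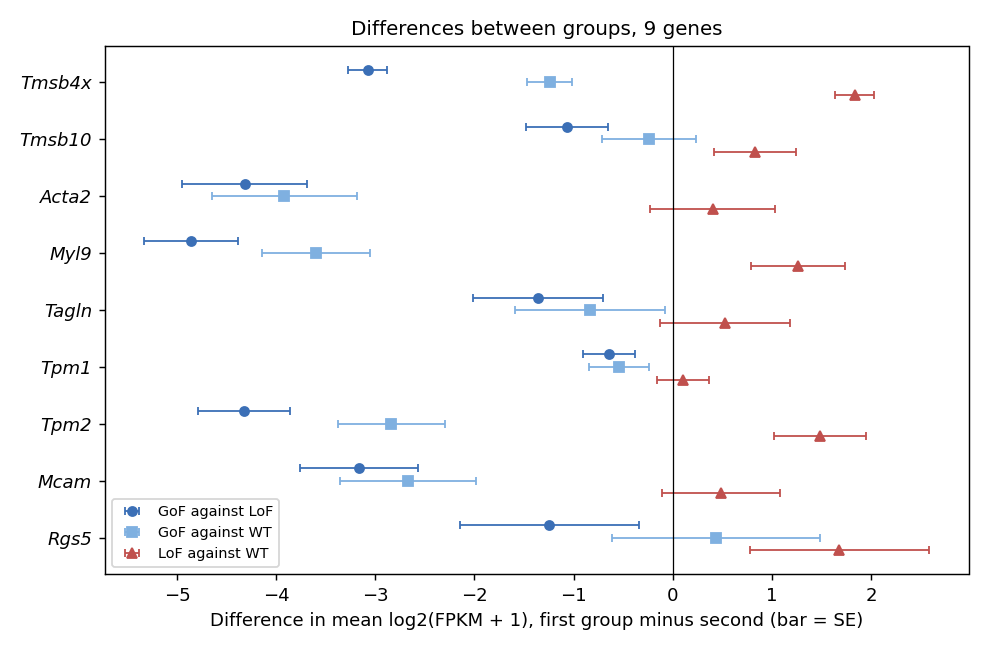
Difference in mean log2(FPKM + 1) (x axis) for 9 genes (y axis), GoF against LoF, GoF against WT and LoF against WT; bars are SE. GoF lies furthest below LoF for Myl9, Tpm2 and Acta2, and LoF lies furthest above WT for Tmsb4x at 1.83.

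Counted over the whole table with limma (12888 genes tested, Benjamini-Hochberg adjusted p under 0.05), 5 of the 9 genes that passed the filter were lower in GoF than in LoF (Acta2, Myl9, Tpm2, Mcam and Tmsb4x) and 0 were higher. Of all genes tested, 5.68% were lower and 5.97% higher. Acta2 and Mcam were no longer called without GoF 1, and Mcam without GoF 2. The counts are a description, since the genes were picked from these contrasts. Against WT, 4 were lower in GoF (Acta2, Myl9, Tpm2 and Tmsb4x), beside 0.9% of all genes lower and 1.41% higher. In LoF against WT 1 gene, Tmsb4x, was higher, beside 0.566% higher and 0.667% lower. With the GoF and WT libraries fitted alone, with a term for sex, or without either WT library, 0 of the 4 remained called in GoF against WT. Without GoF 1 only Tpm2 was called there, and without GoF 2 only Myl9. The Tmsb4x difference between LoF and WT was called in 9 of 16 alternative fits, and was lost without either WT or either GoF library. Tmsb4x was picked for its order in these groups, so its calls, kept or lost, are a description and no evidence for that order.

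By separation alone, 6 genes had both GoF libraries below all 4 LoF libraries, beside 18.7% of all genes tested, and 7 had both below the WT libraries, beside 26.2%. There were 3 genes (Myl9, Tpm2 and Tmsb4x) with every LoF library above both WT libraries, beside 11.5%. Across the 9 genes the median log2 difference of GoF against LoF was -3.08, beside -0.17 for all genes tested. That median of the 9 is the value of Tmsb4x itself, which was picked for its order in these groups. It is therefore a description only. Median ratio scaling moved the median of all genes tested to -0.05. The Tmsb4x difference of -3.08 (SE 0.20) lay between -3.40 and -2.90 under all 16 alternatives.

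Genes that work with these proteins were then read from 6 lists, 80 genes in all, of which 65 passed the filter. In GoF against LoF, 16 of the 65 fell and 2 rose, beside 5.68% of all genes lower and 5.97% higher, with a median log2 difference of -0.67 beside -0.17 for all genes. These 18 calls were 4 without GoF 1, with 0 higher, and 8 without GoF 2. In GoF against WT, 4 fell and 2 rose, beside 0.9% lower and 1.41% higher, and these 6 were 0 without GoF 1, 2 without GoF 2, 1 without WT 1 and 2 without WT 2. In LoF against WT limma called 0 of 65, with 10 at an unadjusted p under 0.05. The lists were also drawn up with earlier results of these data known.

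Smooth muscle partners were the list with the lowest median, -1.25. Of its 14 genes 8 were tested and 4 fell in GoF against LoF: Cald1, Mylk, Actg2 and Actn1. Caldesmon (Cald1), which gates myosin's access to actin, was 103, 147, 62.2 and 188 FPKM in LoF, 101 and 72.9 in WT, and 4.41 and 10.6 in GoF. Its log2 difference of GoF against LoF was -3.88 (SE 0.46, limma adjusted p = 0.000706), and that against WT was -3.45 (SE 0.53, adjusted p = 0.00952). The first call held in all 16 alternatives, and the second was lost in 6, among them the fit without GoF 1 and those without either WT library. The enteric γ-smooth muscle actin Actg2 was 2.15 to 6.52 FPKM in LoF, 1.16 and 1.40 in WT and listed at 0 in both GoF libraries. Myosin light chain kinase (Mylk), which phosphorylates the Myl9 product, was 3.92 to 14.6 in LoF, 1.90 and 2.67 in WT, and 0 and 0.819 in GoF. The calls of Actg2 and Mylk were lost without either GoF library, and that of Actn1, which encodes an actin crosslinker, was lost in 11 of 16 alternatives.

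The nonmuscle actin, myosin and tropomyosin partners had a median of -0.97 in GoF against LoF, and 7 of 18 fell. Tagln2, the nonmuscle relative of transgelin, had a log2 difference of -2.31 (SE 0.37, limma adjusted p = 0.00336), with 86.8 to 215 FPKM in LoF, 76.7 and 80.9 in WT and 23.1 and 30.1 in GoF. Calponin 2 (Cnn2) was 88.8 to 161 in LoF, 136 and 143 in WT and 31.8 and 45.5 in GoF, and fell in GoF against both. Myl6 fell by 1.37 on the log2 scale (SE 0.21, limma adjusted p = 0.00269), a call that held in all 16 alternatives. Flna, which encodes the crosslinker filamin A, Myh9, the heavy chain of nonmuscle myosin IIA, Vcl, the adhesion protein vinculin, and Myl12a, a regulatory light chain, also fell. Without GoF 1, the calls of Tagln2, Cnn2, Flna, Myh9, Vcl and Myl12a against LoF were lost, and without GoF 2 those of Flna, Myh9, Vcl and Myl12a. Myh9 was also lost without any of the LoF libraries and Vcl without LoF 4, and both calls were lost with a term for sex. The Cnn2 call against WT was lost in 8 of 16 alternatives. Among them were those without each GoF or WT library and that with a term for sex. Actb, the cytoplasmic β-actin gene, had a difference of -0.58 (SE 0.54, adjusted p = 0.551 with limma), with 787 and 1006 FPKM in GoF inside the LoF range.

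**Figure D5:**
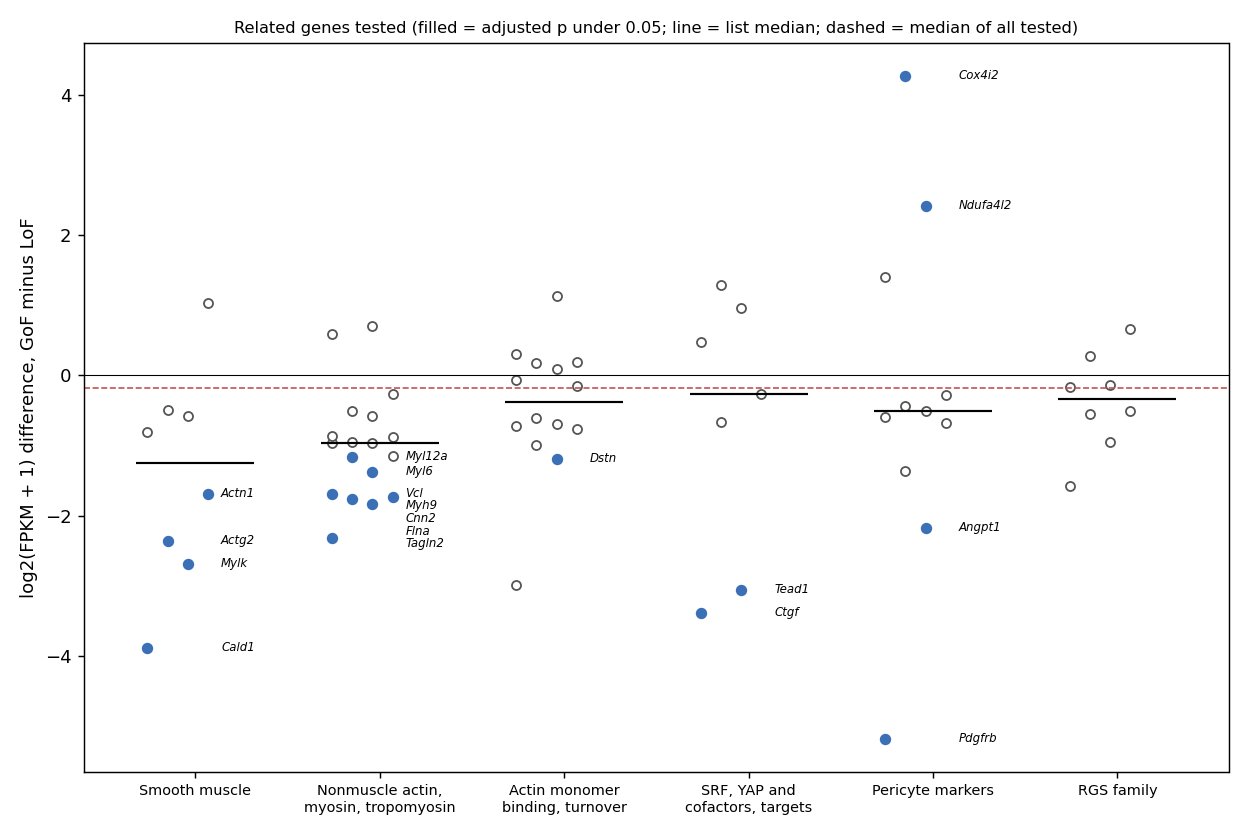
Difference in mean log2(FPKM + 1), GoF minus LoF (y axis), of the tested genes of 6 lists (x axis); filled points passed an adjusted p of 0.05, black lines are list medians, and the dashed line is the median of all genes tested. Pdgfrb and Cald1 lie lowest, and Cox4i2 and Ndufa4l2 are the filled points above 0.

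The genes of actin monomer binding and turnover, the list nearest in function to the thymosins, had a median of -0.38, and 1 of 14 fell. That gene was Dstn, which encodes the severing protein destrin, at 215 to 341 FPKM in LoF and 99.4 and 126 in GoF (log2 difference -1.20, SE 0.26, limma adjusted p = 0.0146). The Dstn call was lost in 5 of 16 alternatives, among them those without either GoF library and that with a term for sex. Pfn1 had a difference of -0.76 (SE 0.33, limma adjusted p = 0.176) and Cfl1 of -0.70 (SE 0.34, limma adjusted p = 0.238). Cfl1 overlapped between GoF and LoF, and the higher GoF library of Pfn1, at 222 FPKM, lay just below the lowest LoF one, at 224.

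Of SRF, its cofactors and the YAP/TAZ partners, 7 of 9 were tested and 2 fell in GoF against LoF. Ctgf, a target of YAP and SRF that encodes a matricellular growth factor, was 232, 341, 270 and 425 FPKM in LoF, 160 and 108 in WT and 26.3 and 31.0 in GoF. Its log2 differences were -3.39 (SE 0.30, limma adjusted p = 0.000152) against LoF and -2.16 (SE 0.35, limma adjusted p = 0.0114) against WT. The first held in all 16 alternatives. The second was lost in 7, among them those without each GoF or WT library and that with a term for sex. Tead1, a DNA-binding partner of YAP, was 10.04 to 30.7 in LoF, 5.42 and 7.87 in WT and 0.810 and 1.93 in GoF, and its call was lost without GoF 1. Cyr61, another YAP and SRF target, did not follow them, at 22.8 to 116 FPKM in LoF, 176 and 140 in WT and 65.5 and 180 in GoF. Srf itself was 0.388 to 3.58 in LoF and 0.167 to 0.902 in the others, and Myocd, the muscle cofactor, was at most 1.69, so neither was tested. The cofactors Mkl1 and Mkl2 had GoF against LoF differences of -0.26 (limma adjusted p = 0.760) and 1.29 (limma adjusted p = 0.132).

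The 14 pericyte and mural cell markers went both ways. Of 11 tested, 2 fell (Pdgfrb and Angpt1) and 2 rose (Cox4i2 and Ndufa4l2) in GoF against LoF. Pdgfrb, the receptor through which pericytes are recruited, was 42.8, 33.9, 42.9 and 37.4 FPKM in LoF, 39.3 and 10.9 in WT, and 0.123 and 0.0975 in GoF. Its log2 differences were -5.17 (SE 0.46, limma adjusted p = 0.000161) against LoF and -4.30 (SE 0.54, limma adjusted p = 0.00367) against WT. The second was lost in 4 of 16 alternatives: without GoF 1, with a term for sex, with a replicate block and with the 2 groups fitted alone. Cox4i2, a hypoxia-inducible subunit of cytochrome oxidase, went the other way, at 4.72 to 20.1 FPKM in LoF, 1.30 and 7.43 in WT and 151 and 225.5 in GoF. The calls of Cox4i2 and Ndufa4l2 against LoF and WT were lost without either GoF library. Against WT the Cox4i2 call was lost in 5 of 16 alternatives and that of Ndufa4l2 in 11. The fits without WT 1 and with a term for sex were among them for each gene. The Angpt1 call against LoF was lost in 8 of 16 alternatives. The summed list was 184.9 and 275 FPKM in GoF, 90.3 to 132 in LoF and 42.8 and 73.2 in WT. Without Cox4i2 the order turned, with 33.8 and 49.7 in GoF below every LoF library, at 81.0 to 112, and 35.4 and 71.9 in WT. Of the defining markers, Cspg4 was 1.63 to 7.59 in all libraries, Abcc9 was 0.180 to 3.40, and Kcnj8 was at most 5.96. Higd1b and Vtn, which mark pericytes in other tissues, were listed at 0 in all 8. The part of pericytes in the levels of Mcam, Rgs5 and Acta2 was not tested.

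Of 11 other RGS family genes, 8 were tested and limma called 0 in GoF against LoF, with 1 at an unadjusted p under 0.05. Rgs4, another RGS gene used to mark mural cells, was 7.41 to 22.2 FPKM in LoF, 1.25 and 1.49 in WT and 16.6 and 4.40 in GoF. Its LoF libraries lay above WT, with a log2 difference of 2.55 (SE 0.58, limma adjusted p = 0.0710).

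The genes nearest in profile to Acta2 were found by the root mean square difference of centred log2(FPKM + 1) values over the 8 libraries, among 4224 genes. They were Fgfr2 (0.43), Myl9 (0.54), Cald1 (0.58), Olfml2b (0.62) and Rasgrp2 (0.63), where the SD of Acta2 itself was 1.95. Among the 5, Myl9 is from the same 10 genes and Cald1 from the smooth muscle list. Both sets were chosen with earlier results of these data known, so this likeness is a description only. The genes nearest to Tmsb4x, whose own SD was 1.31, were Marcks (0.22), Pdcd4 (0.26), Copg2 (0.27), Spp1 (0.28) and Cp (0.36). Spp1, which encodes the bone matrix protein osteopontin, was 7823 to 11845 FPKM in LoF, 4236 and 3450 in WT and 1200 and 1940 in GoF. Marcks, a membrane-bound regulator of actin, was 83.1 to 122 in LoF, 41.8 and 39.6 in WT and 11.5 and 12.4 in GoF. These genes were picked for their likeness, so their levels are given with no test.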

How the data were processed

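The authors deposited 1 table of FPKM values per gene (fragments scaled by transcript length and library size) for 8 libraries. The submitters' processing notes name HISAT2, SAMtools 0.1.18, Cufflinks, HTSeq and mm10, with no role or order. The annotation release is not given in the sources used here. Of 48555 lines, 65 repeated another and were dropped, and all 37 mitochondrial genes listed were at 0 in every library. Values were analysed as log2(FPKM + 1). The 12888 genes at 1 FPKM or more in at least 2 libraries were fitted together in limma 3.58.1 (R 4.3.3), with a mean-variance trend, over all 8 libraries. P-values were two-sided, and Benjamini-Hochberg adjustment covered all genes tested. On simulated data with independent spread per gene and library, the test was checked only for finding most of the largest changes, with the right sign. No limit was set there on false calls. Fold changes of low genes are understated on this scale. The 10 genes and all lists were chosen with earlier results of these data known. Text names all 10 genes, up to 4 called genes per list and comparison by size, a fixed set of regulators and defining markers, and the 5 nearest profiles. Any other gene is named because of its values. Copies were found with blastn 2.17.0 (at least 95% identity over 100 bases). Alternatives were another pseudocount, no filter, other scalings, other fits, a sex term, a replicate block and leaving out each library. Adding the Tmsb10 copies to the thymosin ratio and leaving 1 gene out of the pericyte, osteoblast and hypertrophic sums were alternatives chosen after seeing the data.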

Additional observations from a re-analysis of the deposited data

How the results depend on the processing

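Counts of genes passing an adjusted p of 0.05 with limma moved with the fit. For GoF against LoF, 1501 genes passed (769 higher, 732 lower), 974 with sex as a covariate, 727 with the replicate block and 429 to 1369 with each library left out. Median ratio scaling changed that split to 984 higher and 659 lower, and a pseudocount of 0.1 to 639 and 798. For LoF against WT, 159 passed (73 and 86), 83 with a pseudocount of 0.1, 53 without the filter, 54 without the trend, 14 with sex, 1 with the replicate block, 0 with the groups compared alone (1569 at an unadjusted p under 0.05) and 0 to 135 with each library left out. For GoF against WT, 298 passed (182 and 116), 11 with sex, 15 with the replicate block, 0 with the groups compared alone (2334 unadjusted) and 39 to 332 with each library left out. A pseudocount of 0.1 made that split 112 and 127, and median ratio scaling made the LoF against WT split 75 and 127 and quantile normalization 80 and 147. Among the related genes, the 18 called in GoF against LoF were 7 with the replicate block and 4 to 19 with each library left out. The 0 called in LoF against WT were 1 with quantile normalization (Gsn, lower). The 6 called in GoF against WT were 10 with quantile normalization, 1 with the replicate block, 0 with sex, 0 with the groups compared alone and 0 to 6 with each library left out. The cause was not tested. Replicate numbers did not pair the libraries: deviations of same-numbered libraries correlated between -0.0069 and 0.030. Of 432 log2 differences of the 9 genes under alternatives, 22 moved by more than the replicate spread and 8 changed sign, none of them a called difference. Where a group is left with 1 library, that library is assumed to vary like the others. FPKM without counts sets no detection limit.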

Other observations

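Another thymosin gene had a pattern of its own and was singled out after its values were seen. Tmsb15l, a β-thymosin-like gene, was 2.97, 36.5, 29.9 and 8.77 FPKM in LoF, 1.08 and 0 in WT, and 2.37 and 1.43e-05 in GoF. Its log2 difference was 3.33 (SE 0.91) for LoF against WT and -2.99 (SE 0.91) for GoF against LoF, and neither passed with limma (adjusted p = 0.125 and 0.0617). Tmsb15a was listed at 0 in every library.

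Gelsolin (Gsn), which severs and caps actin filaments, lay the other way from Tmsb4x between LoF and WT. It was 50.9, 37.7, 81.2 and 86.9 FPKM in LoF, 179 and 134 in WT and 61.1 and 93.0 in GoF. LoF was below both WT libraries, with a log2 difference of -1.34 (SE 0.37, limma adjusted p = 0.134). It was singled out after its values were seen.

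Erythroid markers differed between libraries by a wide margin, with a summed level of 6 genes of 2557 and 10567 FPKM in WT, 75.98 to 2273 in LoF and 895 and 1838 in GoF. Tmsb4x was 528 and 538 FPKM in those WT libraries. The part of erythroid cells in the Tmsb4x level was not tested.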
